A study of Homo sapiens with 6 samples.

Results

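RNA of 10 genes that control the fusion and fission of mitochondria was followed in HEK293 cells labelled as wild type or as lacking MUL1. The genes were MUL1, MARCHF5 (older name MARCH5), MFN1, MFN2, OPA1, OMA1, DNM1L, FIS1, MFF and MIEF1, chosen by name as members of the pathway. Earlier results of these data were known when they were chosen. They are 10 of the 57123 genes counted, and all 10 were among the 25125 genes that passed the filter on low counts. HEK293 is an established line of human embryonic kidney cells. The study sequenced 6 libraries, 3 from wild type (WT) cells and 3 labelled MUL1(−/−), a genotype made with CRISPR-Cas9. Both genotypes were grown in the same supplemented DMEM, and no group received a drug. The sources used here do not say how many clones stand behind the MUL1(−/−) libraries, nor whether the 3 libraries of a genotype came from separate cultures, so p-values measure only the spread between these libraries. A clonal difference and a difference of genotype cannot be told apart in this design.

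Mitochondria fuse when mitofusins join the outer membranes and OPA1 joins the inner ones, and they divide when the dynamin-like GTPase DRP1, the product of DNM1L, is drawn from the cytosol to receptors on the outer membrane. MUL1 and MARCHF5 are RING-type E3 ligases anchored in the outer membrane, and proteins of the fusion and fission machinery are among their targets. That control acts on proteins, whereas the libraries measured RNA. The comparison asked whether the RNA of the same genes differed between the genotypes.

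Of the 10 genes, 2 were higher in the libraries labelled MUL1(−/−) (MFN1 and OPA1), 3 were lower (MARCHF5, MFN2 and FIS1), and 5 did not pass the test (MUL1, OMA1, DNM1L, MFF and MIEF1). The test was edgeR's quasi-likelihood fit over all tested genes, and a gene was called when its Benjamini-Hochberg adjusted p was below 0.05. Of all tested genes, 18.8% were called higher and 18.7% lower, so a call alone is common in these libraries. Only MARCHF5 also passed an absolute log2 fold change of 1, which 8.11% of tested genes did. The genotypes did not overlap in 6 of the 10 genes, against 48.5% of all tested genes. In such bulk libraries, fewer cells with a transcript and less of it per cell cannot be told apart. The median log2 fold change was -0.04 over the 10 genes and -0.01 over all tested genes. Levels are given as CPM, the count summed over a gene's exon bins and scaled to 1000000 of the TMM-adjusted library total.

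**Figure D1:**
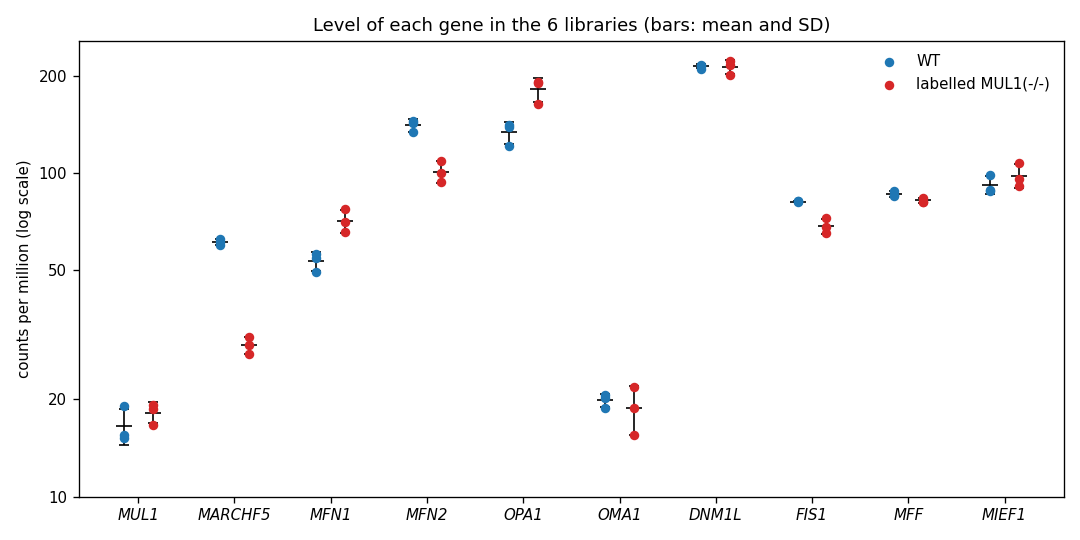
CPM on a log scale for the 10 genes, with 1 point per library (blue WT, red labelled MUL1(−/−)) and black bars for the mean and SD of 3 libraries. MARCHF5 lies between 59.9 and 62.4 in WT and between 27.6 and 31.1 in the other genotype, while the points of MUL1 and DNM1L overlap.

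The libraries held 127015142 to 142803296 gene counts in WT and 121917971 to 122441959 in MUL1(−/−). The totals exceed the number of reads, since a read adds 1 count to every bin that it spans. The 8 markers of HEK293 cells fixed for a check of identity were all detected, with a summed level of 1314 to 1535 CPM in WT and 943 to 1119 CPM in MUL1(−/−). The 8 markers of other cell types summed to 20.7 to 25.4 CPM and 16.6 to 20.1 CPM, most of it COL1A1. Of the HEK293 markers, PAX2, LHX1, KRT8 and VIM were called lower, with log2 fold changes of -1.80, -0.55, -0.93 and -0.34, and NEFM was called higher at 1.06. COL1A1, of fibroblasts, was called lower, at 21.9 CPM in WT and 16.8 CPM in MUL1(−/−) (log2 fold change -0.39). PTPRC and PECAM1, of blood and endothelium, were called higher but averaged 0.365 and 0.223 CPM in MUL1(−/−). INS was at 0 in every library, and CD3E reached at most 1 count. The part of these marker differences in the results below was not tested.

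MUL1, the targeted gene (ENSG00000090432, chr1:20499448-20508161, minus strand, GRCh38), gave 15.4, 15.2 and 19.02 CPM in the WT libraries and 18.7, 16.7 and 19.2 CPM in those labelled MUL1(−/−). The groups overlapped, with the third WT library inside the range of the other genotype. The WT mean was 16.5 ± 2.15 CPM, and that of MUL1(−/−) was 18.2 ± 1.35 CPM (SD over 3 libraries). The log2 fold change was 0.14 (SE 0.10, 95% interval -0.08 to 0.35, edgeR adjusted p = 0.321). The lower end of the interval is 0.946 of the WT level. MUL1 RNA therefore does not tell the genotypes apart, and the groups are named by their labels throughout.

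Reads fell on all 4 exons of MUL1 in all 6 libraries. Exons 2 (chr1:20503222-20503309) and 3 (chr1:20502069-20502189) are coding along their whole length, and they are shown because reads touched both exons under both labels. The counts show neither the bases of these exons nor that the exons were joined in the RNA. Both exons are printed as joined in the GENCODE 29 transcript, 5′ to 3′, with exon 2 in capitals and exon 3 in lower case.
MUL1 exons 2 and 3: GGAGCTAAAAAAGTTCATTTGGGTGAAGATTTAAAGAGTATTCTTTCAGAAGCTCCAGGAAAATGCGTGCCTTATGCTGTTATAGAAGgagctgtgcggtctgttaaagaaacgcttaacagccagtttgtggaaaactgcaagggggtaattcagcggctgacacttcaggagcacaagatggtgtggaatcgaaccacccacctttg

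Exon 2 held 154, 154 and 194 counts in WT and 170, 149 and 200 in MUL1(−/−). Exon 3 held 219, 216 and 283 counts in WT and 250, 231 and 259 in MUL1(−/−). No exon of MUL1 was missing from a library of either genotype. The first exon, which carries the start of the coding sequence, took 11.6% ± 0.52 of the gene's counts in WT and 13.1% ± 1.10 in MUL1(−/−), and the last exon took 69.7% ± 1.74 and 68.5% ± 1.87 (SD, n = 3). Exact two-sided permutation tests of the 4 exon shares gave p from 0.1 to 0.9, where 0.1 is the smallest that 3 against 3 libraries allow. The 0.1 belonged to the first exon, whose shares did not overlap, at 11.1% to 12.1% in WT and 12.5% to 14.4% in MUL1(−/−). Relative to the other exons of MUL1 its log2 fold change was 0.18, which was not called (edgeR diffSpliceDGE, unadjusted p = 0.202). Exon counts carry no base calls, so a small insertion or deletion in MUL1 would not be seen in them.

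The genes around MUL1 moved otherwise. The median log2 fold change of its 20 nearest tested neighbours, 10 on either side, was -0.54, with 14 of them called lower and 0 higher. MUL1 thus lay 0.68 above its neighbours on the log2 scale. Of the 102 tested genes between MFN2 and MUL1 on chromosome 1, 61 were called lower and 4 higher, with a median log2 fold change of -0.49. The part of such regional shifts in the change of any single gene was not tested.

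Over the 6 libraries, the log2 CPM of MUL1 was followed most closely by TMX2, with a Pearson r of 0.997, then EFCAB10-AS1 with 0.990 and DEF8 with 0.988, among 15858 genes of at least 1 CPM on average. TMX2 encodes a thioredoxin-related membrane protein. These are the closest of many genes over 6 points, given as a description.

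MARCHF5 (ENSG00000198060, chr10:92291163-92353964, plus strand), the other outer membrane ligase of the set, showed the largest change of the 10 genes. Its level was 61.3, 59.9 and 62.4 CPM in WT and 29.4, 31.1 and 27.6 CPM in MUL1(−/−). Every library labelled MUL1(−/−) lay far below every WT library. The means, 61.2 ± 1.27 and 29.4 ± 1.80 CPM (SD, n = 3), differed by a log2 fold change of -1.06 (SE 0.07, 95% interval -1.22 to -0.90, edgeR adjusted p = 5.82e-08), which leaves 48.0% of the WT level. The interval spans the fold threshold of 1, and the fold change was -0.99 when library totals replaced TMM factors.

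The fall of MARCHF5 ran along the whole gene. In 10 of its 11 tested bins all 3 libraries labelled MUL1(−/−) were below all 3 WT libraries, although bins of a gene share reads and are not independent. The last bin, of 2874 bases, held 2281, 2626 and 2522 counts in WT and 1019, 1286 and 1180 in MUL1(−/−). The first bin, of 367 bases, held 980, 854 and 735 counts in WT and 400, 405 and 376. The remaining bin was sparse, with 11 to 25 counts in WT and 12 to 20 in MUL1(−/−). No bin of MARCHF5 passed the test of bin usage described below. The 20 neighbours of MARCHF5 had a median of -0.36, with 10 called lower and 2 higher, so MARCHF5 lay 0.70 below them on the log2 scale.

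**Figure D2:**
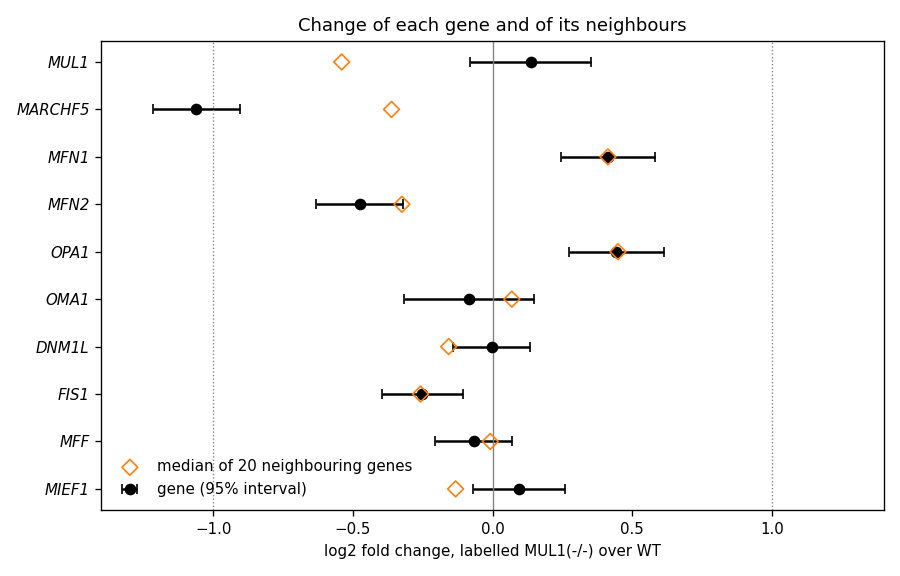
Log2 fold change of each gene, MUL1(−/−) over WT, with its 95% interval (black), beside the median of its 20 neighbouring tested genes (orange diamonds). The dotted lines mark a log2 fold change of 1 in either direction. MFN1, OPA1 and FIS1 lie on their neighbours' medians, MARCHF5 lies 0.70 below and MUL1 0.68 above.

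The mitofusins, the GTPases that tether and fuse outer membranes, moved in opposite directions. MFN1 (ENSG00000171109, chr3:179347692-179394931) gave 56.3, 49.4 and 54.6 CPM in WT and 65.8, 70.4 and 77.1 CPM in MUL1(−/−). MFN2 (ENSG00000116688, chr1:11980181-12013514), which also tethers mitochondria to the endoplasmic reticulum, gave 145, 133 and 143 CPM in WT and 100.3, 93.5 and 109 CPM in MUL1(−/−). Neither gene's groups overlapped. MFN1 rose by a log2 fold change of 0.41 (SE 0.08, 95% interval 0.24 to 0.58, edgeR adjusted p = 0.000749). MFN2 fell, with a log2 fold change of -0.48 (SE 0.07, 95% interval -0.63 to -0.32, edgeR adjusted p = 0.000119), to 71.9% of its WT level.

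The changes of both mitofusins were spread over their exons. MFN1 was higher on average in 31 of 31 tested bins, with no overlap in 22 of them, and MFN2 was lower in 29 of 30, with no overlap in 24. Bins of a gene share reads, so these are not independent results, and no share over all tested bins stands beside these counts. The surroundings of both genes moved the same way. The 20 neighbours of MFN1 had a median log2 fold change of 0.41, with 13 called higher and 0 lower, and those of MFN2 had -0.32, with 9 called lower and 0 higher.

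OPA1 (ENSG00000198836, chr3:193593144-193697823), which fuses inner membranes and shapes cristae, gave 141, 138 and 121 CPM in WT and 164, 191 and 190.0 CPM in MUL1(−/−). The lowest library labelled MUL1(−/−) lay above the highest WT library. The log2 fold change was 0.44 (SE 0.08, 95% interval 0.27 to 0.61, edgeR adjusted p = 0.000478), and 44 of 53 tested bins, which share reads, were higher with no overlap. The 20 neighbours of OPA1 had a median of 0.45, with 11 called higher and 0 lower. MFN1 and OPA1 lie on the same chromosome, and of the 115 tested genes between them 64 were called higher and 0 lower, 55.7% against 18.8% of all tested genes. The median log2 fold change of those 115 genes was 0.45.

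OMA1 (ENSG00000162600, chr1:58415384-58546802) encodes the stress-activated inner membrane protease that cleaves OPA1. Its level was 20.1, 18.8 and 20.6 CPM in WT and 15.5, 18.8 and 21.9 CPM in MUL1(−/−). The groups overlapped, and the first MUL1(−/−) library was the lowest of all 6. The log2 fold change was -0.08 (SE 0.11, 95% interval -0.32 to 0.15, edgeR adjusted p = 0.593). OMA1 shares its identifier in the tables with an overlapping gene, and its count rests on the bins that GENCODE 29 gives to OMA1 alone.

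DNM1L (ENSG00000087470, chr12:32679200-32745650) had the highest CPM of the 10 genes, but this sum runs over 73 bins, and a read counts in each bin it touches. By the longest bin alone, MFN2 was above DNM1L in WT (17.4 against 12.3 CPM per kilobase), and DNM1L was above MFN2 in MUL1(−/−) (12.9 against 12.4). Summed over its bins, DNM1L gave 216, 210.0 and 215 CPM in WT and 201, 222 and 215 CPM in MUL1(−/−). The WT libraries all lay within the range of the other genotype. With means of 213 ± 2.98 and 213 ± 10.7 CPM (SD, n = 3), the 95% interval of the log2 fold change ran from -0.14 to 0.13, a range of 0.907 to 1.10 times the WT level (edgeR adjusted p = 0.973).

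FIS1, MFF and MIEF1 encode outer membrane proteins that bind DRP1 or act beside it in fission. FIS1 (ENSG00000214253, chr7:101239458-101252316, minus strand) gave 81.6, 81.1 and 81.8 CPM in WT and 67.9, 65.0 and 72.4 CPM in MUL1(−/−). The groups did not overlap, and the WT libraries were nearly level. FIS1 fell to 84.0% of its WT level (log2 fold change -0.25, SE 0.07, 95% interval -0.40 to -0.11, edgeR adjusted p = 0.00864). Its bins, which share reads, were mixed: of 19 tested, 15 were lower on average, with no overlap in 6, and 4 were higher, with no overlap in 3. Its 20 neighbours had a median of -0.26, with 10 called lower and 2 higher. The call of FIS1 was lost when the most counted bin stood for each gene (log2 fold change -0.17, edgeR adjusted p = 0.105) and without the second MUL1(−/−) library (-0.20, adjusted p = 0.0681).

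MFF (ENSG00000168958, chr2:227325151-227357836) gave 88.2, 85.6 and 84.7 CPM in WT and 81.1, 83.9 and 81.6 CPM in MUL1(−/−). The groups did not overlap, yet the log2 fold change of -0.07 (95% interval -0.20 to 0.07) did not pass the test (edgeR adjusted p = 0.450). MIEF1 (ENSG00000100335, chr22:39499432-39518132) gave 98.5, 88.8 and 88.2 CPM in WT and 95.7, 91.3 and 107 CPM in MUL1(−/−), with overlapping groups. Its log2 fold change was 0.09 (95% interval -0.07 to 0.26, edgeR adjusted p = 0.370). Of the 4 genes that act in fission directly, only FIS1 was called, and its change was smaller than that of MARCHF5, MFN1, MFN2 or OPA1. The differences between genes in their fold changes were not tested.

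Levels were compared between genes as CPM per kilobase of the gene's bins. In WT the order was FIS1 (45.4), DNM1L (29.3), MFN2 (28.2), OPA1 (15.8), MFF (14.0), MARCHF5 (13.2), MIEF1 (12.2), MFN1 (8.97), MUL1 (6.79) and OMA1 (5.73). The libraries of DNM1L overlapped those of MFN2, and the libraries of MARCHF5 overlapped those of MIEF1, so neither pair has a clear order. In MUL1(−/−), OPA1 (21.5) and MFN2 (20.3) overlapped, as did MFF (13.4) with MIEF1 (13.0) and MIEF1 with MFN1 (11.9). MARCHF5 dropped from place 6 to place 9, at 6.34 CPM per kilobase, where it overlapped OMA1 (5.41). These values depend on how many bins a gene has. By the longest bin alone, MARCHF5 moved only from rank 6 to rank 7. In WT the longest bin put MFN2 at rank 1, MIEF1 at 3, FIS1 at 5 and MFF at 9, so the places above are not firm.

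The use of single exon bins was compared within each gene, as the fold change of a bin relative to the other bins of the gene. Of 317 tested bins in the 10 genes, 1 was called, in FIS1, against 1.48% of all tested bins (edgeR diffSpliceDGE, adjusted p under 0.05). The bin (chr7:101251895-101252133) has 239 bases, of which 14 are coding, and is held by 3 annotated transcripts of FIS1. It held 204, 216 and 207 counts in WT and 273, 249 and 234 in MUL1(−/−), so it was higher where the gene as a whole was lower. Relative to the other bins of FIS1 its log2 fold change was 0.59 (edgeR adjusted p = 0.000474), and it made up 1.95% ± 0.06 of the gene's counts in WT and 2.95% ± 0.30 in MUL1(−/−) (SD, n = 3). In the other 9 genes 0 bins were called by edgeR or by limma's diffSplice. Of the 317 tested bins of all 10 genes, 19 had an unadjusted p under 0.05 in edgeR and 24 in limma. An unadjusted threshold of 0.05 lets some bins pass without any change, so these counts are not read as further changes in usage.

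OPA1, DNM1L and MFF are known for alternative splicing of coding exons, which changes the proteins' regulatory stretches. Exons were taken that at least 3 coding transcripts of GENCODE 29 hold and at least 3 skip, a rule set after the values had been seen, which gave 10 exons. For each gene, the exon whose most counted bin had the smallest unadjusted p in the test of bin usage is printed, to show what was counted, with the exon in capitals and 20 bases of the exons on either side in lower case, from GENCODE 29 transcripts on GRCh38, plus strand, 5′ to 3′. They are chr3:193626092-193626202 in OPA1, chr12:32738264-32738296 in DNM1L and chr2:227352514-227352573 in MFF.
OPA1 exon of 111 bases: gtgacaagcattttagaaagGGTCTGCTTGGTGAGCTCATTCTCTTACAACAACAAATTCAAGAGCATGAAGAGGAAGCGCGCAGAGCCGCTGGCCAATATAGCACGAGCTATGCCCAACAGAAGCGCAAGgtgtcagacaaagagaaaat
DNM1L exon of 33 bases: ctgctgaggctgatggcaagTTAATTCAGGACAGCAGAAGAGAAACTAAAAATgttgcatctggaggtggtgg
MFF exon of 60 bases: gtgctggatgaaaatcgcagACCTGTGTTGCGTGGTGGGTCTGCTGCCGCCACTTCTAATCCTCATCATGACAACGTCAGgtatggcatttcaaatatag

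Each exon's count is given as a percent of the most counted coding bin of its gene, read from the most counted bin inside the exon. The percents are not scaled for bin length, which was 58 against 153 bases for the 111-base exon of OPA1. They are therefore not inclusion levels, and they compare genotypes for an exon but not exons with each other. The 111-base exon of OPA1 stood at 18.6%, 20.8% and 19.9% in WT and at 24.8%, 25.4% and 26.3% in MUL1(−/−). It was the only one of the 10 exons whose groups did not overlap. Relative to the other bins of OPA1 the log2 fold change was 0.42, which did not pass the test (edgeR adjusted p = 0.153, limma adjusted p = 0.180). The exact two-sided permutation p was 0.1, the smallest this design allows, and 0.4 after Benjamini-Hochberg adjustment over the 10 exons. The OPA1 exon of 108 bases, near 65.4% ± 5.16 in WT and 63.5% ± 2.34 in MUL1(−/−), and that of 54 bases, near 5.59% ± 0.49 and 5.92% ± 0.68, overlapped between the genotypes.

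The exon of 33 bases in DNM1L stood at 44.5% ± 2.48 in WT and 38.1% ± 3.41 in MUL1(−/−), and its neighbour of 78 bases at 33.2% ± 0.80 and 28.9% ± 5.03 (SD, n = 3). The DNM1L exon of 39 bases was nearly unused, with 5 to 11 counts a library, too few for the test. In MFF the exon of 60 bases stood at 29.9% ± 3.85 in WT and 36.9% ± 4.83 in MUL1(−/−), and that of 159 bases at 27.1% ± 2.44 and 33.7% ± 6.83. By the most counted bin of each exon, none of these passed the test in edgeR or limma (adjusted p from 0.231 to 0.926), and in each the groups overlapped. The 159-base exon of MFF is cut into 4 bins, all with an unadjusted p under 0.05 in edgeR (0.00284 to 0.0287), and the smallest adjusted p among them was 0.132. Bins of an exon share reads, so the 4 are not independent results. The MFF exons of 60, 75 and 159 bases held 66 to 265 counts per library. How small a shift in splicing could be detected at such counts was not tested, so small shifts may have been missed.

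Beyond the 10 genes, 52 other genes of mitochondrial dynamics were compiled in 5 lists. Of these, 18 were called higher, 7 lower and 27 did not pass the test, and 0 passed both thresholds. Their median log2 fold change was 0.05. The 18 and 7 of 52 stand beside 18.8% and 18.7% of all tested genes.

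Of 5 partners of fusion, 2 were higher and 1 lower. SLC25A46, an outer membrane carrier protein, rose from 52.6 ± 4.37 to 71.7 ± 6.87 CPM (log2 fold change 0.45, edgeR adjusted p = 0.000741). PLD6, a mitochondrial phospholipase, rose by 0.35 beside a neighbours' median of 0.52, though 76.6% of its counts lie in bins that exons of another gene touch. MIGA1, a mitoguardin, fell by 0.26 on the log2 scale. The neighbours' median was -0.09 around SLC25A46 and 0.03 around MIGA1.

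Of 16 genes of OPA1 processing and cristae, 4 were higher and 3 lower. PARL, the rhomboid protease of the inner membrane, rose from 69.1 ± 3.33 to 107.6 ± 3.24 CPM (log2 fold change 0.64, edgeR adjusted p = 4.02e-06), with 87.2% of its counts in bins shared with exons of another gene. MICOS13, a subunit of the cristae junction complex, rose by 0.54 on the log2 scale. ROMO1, a small inner membrane protein, and MICOS10, a cristae junction subunit, had log2 fold changes of -0.51 and -0.46. The neighbours' median was 0.50 around PARL, 0.61 around MICOS13, -0.54 around ROMO1 and -0.47 around MICOS10. PARL lies between MFN1 and OPA1 on chromosome 3, and MICOS10 lies between MFN2 and MUL1 on chromosome 1. YME1L1, which cuts OPA1 as OMA1 does, had a log2 fold change of -0.09 and did not pass the test (edgeR adjusted p = 0.328).

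Of 11 partners of fission, 5 were higher and 1 lower. PGAM5, an outer membrane phosphatase, rose from 81.4 ± 6.67 to 132 ± 5.04 CPM (log2 fold change 0.70), and GDAP1, an outer membrane protein of neurons, rose from 19.6 ± 3.57 to 30.3 ± 1.57 CPM (0.63). MTFR1L, a member of the mitochondrial fission regulator family, fell from 61.3 ± 0.62 to 37.2 ± 3.69 CPM (log2 fold change -0.72). The neighbours' median was 0.11 around PGAM5 and 0.05 around GDAP1, but -0.59 around MTFR1L, which lies on chromosome 1 as MUL1 and MFN2 do.

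Of 13 genes of ubiquitin and SUMO control at the outer membrane, 3 were higher. The SUMO proteases SENP3 and SENP5 rose by 0.52 and 0.47 on the log2 scale. The neighbours' median was 0.52 around SENP3 and 0.46 around SENP5, which lies on chromosome 3. Of 7 genes of mitochondrial transport, 4 were higher and 1 lower. SNPH, the axonal docking protein syntaphilin, and MYO19, a mitochondrial myosin, rose by 0.57 and 0.51, and RHOT2, the GTPase MIRO2 that links mitochondria to motors, had a log2 fold change of -0.23. The neighbours' median was 0.10 around SNPH, 0.41 around MYO19 and -0.08 around RHOT2.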

How the data were processed

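RNA of 6 HEK293 libraries was prepared by the authors with the SMARTER mRNA-Seq kit. Per the labels' processing notes, Trimmomatic 0.36, STAR 2.5.2b and GRCh38 were used. The counting program and its use of strand are not given in the sources used here. For each library the authors deposited a table of raw counts of reads in exon bins, not normalized. The design had assumed counts per gene, so bins were summed per gene. Bins under the 2031 joined identifiers were assigned by GENCODE 29 exons of the genes they join, and 15566 bins that several of the joined genes cover were left out. Because a read counts in each bin it touches, sums are less precise than their size implies.

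Genes were tested with edgeR 4.0.16 (R 4.3.3; TMM factors 0.946 to 1.03, filterByExpr, quasi-likelihood test, Benjamini-Hochberg adjustment over 25125 genes) and bins with diffSpliceDGE over 313115 bins. Both were also run on simulated counts. These drew bins independently and with a fixed dispersion, whereas bins here share reads, so the runs do not give error rates for these libraries. Alternatives were DESeq2 1.42.0, limma 3.58.1 for bins, other scalings, filters and bin choices, a replicate block, and each library left out in turn. Exact permutation tests used scipy 1.17.1, tables pandas 2.3.3 and figures matplotlib 3.10.9. The genes, lists and comparisons were chosen with earlier results of these data known. Named were the 10 genes, up to 2 highest and 2 lowest called genes of each list, called bins, and the 3 genes most correlated with MUL1. YME1L1 was named after its value was seen. Replicates of a genotype differed by more than sampling noise in the most counted bin of each gene (chi-square over degrees of freedom 2.95 to 10.8). Sequences were read from GENCODE 29 transcripts. The result of 1 gene of the lists is not reported here, though list counts include it.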

Additional observations from a re-analysis of the deposited data

How the results depend on the processing

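Under 15 alternatives MARCHF5, MFN1, MFN2 and OPA1 kept their direction and call, and MUL1 was never called, with log2 fold changes from 0.07 to 0.24 and adjusted p from 0.0526, without the third WT library, to 0.695. FIS1 was called in 13 of the 15. With library totals in place of TMM factors, which raised the median log2 fold change by 0.07, genes past both thresholds went from 1 to 0. Pathway genes called higher, 18 in all, ranged from 13 without the second WT library to 21 with library totals. They were 14 with joined identifiers kept whole. Pathway genes called lower, 7 in all, became 3 with library totals, 2 with joined identifiers kept whole, which drops joined genes and gave no value for OMA1, and 3 to 8 with 1 library left out: 3 without the first WT or the first MUL1(−/−) library, and 4 without the second of either. Bins of the 10 genes with changed usage numbered 1 to 2 with 1 library left out, the 2 without the second MUL1(−/−) library. Beyond fewer genes or libraries in the fit, the cause was not tested.

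Genes near 0 changed sign, and none of them passed the test under any alternative. DNM1L gave 0.0055 with DESeq2, 0.0041 with RLE factors, 0.066 with library totals, 0.027 without a filter, 0.0085 with at least 1 CPM, 0.0888 by its most counted bin, 0.0026 with bins that no other gene touches, 0.0056 with joined identifiers whole, and with 1 library left out -0.0215 to 0.0486, with the sign changed without the first WT (0.0013) or the first MUL1(−/−) library (0.0486). MFF gave 0.0031 with library totals. OMA1 gave 0.0385 by its most counted bin and -0.2087 to 0.0507 with 1 library left out, the highest without the first MUL1(−/−) library, and MIEF1 gave -0.0552 by its most counted bin.

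Deviations of libraries with the same replicate number correlated at -0.08, 0.16 and 0.10, and those with different numbers at -0.18 to 0.10. Of the 6 libraries, 4 correlated best with their own number. Whether the replicate numbers pair the libraries was not tested. With the replicate number as a block, 2 of the 10 genes were higher, 3 lower and 1 past both thresholds, 17 pathway genes were higher and 5 lower, and MUL1 had a log2 fold change of 0.14.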
